A study of Homo sapiens with 19 samples.

Results

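The AKAP8 binding sites described here are those with a called peak in both the epithelial and the mesenchymal state of HMLE/Twist-ER cells. The sites were chosen by peak calls, with no cutoff on the peak values. A site was taken where an AKAP8 eCLIP peak of the epithelial list overlapped a peak of the mesenchymal list by at least 1 nt on the same strand, and overlapping peaks were merged. Of 24637 epithelial peaks, 15170 (61.6%) were shared, and of 30390 mesenchymal peaks, 15011 (49.4%) were shared, which gave 7285 sites with a median width of 90 nt. The remaining peaks gave 7036 regions found in the epithelial list only and 11212 in the mesenchymal list only, after those that touched a shared site were left out.

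HMLE/Twist-ER is a line of TERT-immortalized human mammary epithelial cells that carries the EMT factor Twist as a tamoxifen-inducible fusion, so all groups share this transgene. Untreated cells are the epithelial state (EPI), and cells kept in 20 nM tamoxifen until their shape was mesenchymal are the mesenchymal state (MES). For eCLIP, which crosslinks proteins to RNA with ultraviolet light and sequences what an antibody pulls down, each state had 2 AKAP8 libraries and 2 input libraries of the same gel size range. RNA-seq covered 3 EPI control, 3 EPI shAKAP8, 3 MES control and 2 MES shAKAP8 libraries, where controls carried a nonspecific shRNA and knockdown cells an AKAP8 shRNA, both stably expressed from lentivirus.

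AKAP8 is a nuclear scaffold protein that anchors protein kinase A and also binds RNA and splicing factors. Intronic binding sites of such proteins can lie close to an exon, where they may affect its splicing, or deep within an intron. Runs of guanines in RNA are contacted by several hnRNP proteins, of which hnRNP H and hnRNP F are the best known, and can fold into compact four-stranded structures. During EMT, epithelial cells lose cell-cell junctions and change the splicing of many transcripts, with the ESRP proteins favouring epithelial isoforms and factors such as QKI and RBFOX2 favouring mesenchymal ones.

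The sequences of the most enriched shared sites show what the sites have in common. They are 5 of the strongest sites in both states, all wholly within introns, followed by the sites beside the 2 cassette exons that responded to AKAP8 knockdown in EPI. Each is GRCh37 sequence of the transcribed strand, 5′ to 3′, with runs of at least 3 guanines in capitals.
GPSM1, chr9:139245202-139245436, plus strand: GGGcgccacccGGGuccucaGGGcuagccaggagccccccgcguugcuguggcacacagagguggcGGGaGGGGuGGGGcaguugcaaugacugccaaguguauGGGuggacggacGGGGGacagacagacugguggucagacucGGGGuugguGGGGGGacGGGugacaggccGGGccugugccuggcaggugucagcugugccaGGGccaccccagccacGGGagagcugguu
RXRA, chr9:137228765-137228920, plus strand: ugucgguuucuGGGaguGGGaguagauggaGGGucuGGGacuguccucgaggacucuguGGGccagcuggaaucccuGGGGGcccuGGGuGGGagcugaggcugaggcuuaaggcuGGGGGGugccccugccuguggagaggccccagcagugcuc
NOTCH1, chr9:139436639-139436737, minus strand: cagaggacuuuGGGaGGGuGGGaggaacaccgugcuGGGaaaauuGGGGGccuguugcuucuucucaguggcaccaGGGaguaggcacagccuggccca
COL18A1, chr21:46851366-46851548, plus strand: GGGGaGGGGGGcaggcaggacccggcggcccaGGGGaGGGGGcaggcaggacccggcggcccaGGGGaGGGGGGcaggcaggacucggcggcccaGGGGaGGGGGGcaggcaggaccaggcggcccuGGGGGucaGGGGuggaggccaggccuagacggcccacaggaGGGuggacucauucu
ZDHHC8, chr22:20126055-20126252, plus strand: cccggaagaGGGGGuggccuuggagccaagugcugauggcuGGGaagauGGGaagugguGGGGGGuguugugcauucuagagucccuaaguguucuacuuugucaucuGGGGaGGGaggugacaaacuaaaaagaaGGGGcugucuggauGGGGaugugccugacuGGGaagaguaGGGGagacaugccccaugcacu
TPD52L2, chr20:62507661-62507731, plus strand: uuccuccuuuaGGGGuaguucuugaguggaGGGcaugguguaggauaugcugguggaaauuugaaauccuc
MICALL2, chr7:1474888-1474949, minus strand: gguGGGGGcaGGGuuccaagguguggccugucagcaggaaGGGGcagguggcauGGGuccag
The GPSM1 site held 14 runs in 235 nt, the longest of 6 guanines, and the RXRA site held 9 runs in 156 nt. The NOTCH1 site held 6 runs in 99 nt and the ZDHHC8 site 10 runs in 198 nt. The COL18A1 site, with 11 runs in 183 nt, repeats one unit along much of its length, and the 300 nt around its centre were most like themselves when shifted by 32 nt, with a fraction of 0.608 identical. The sites beside the responding exons were shorter and less enriched, with 2 runs in the 71 nt of TPD52L2 and 4 runs in the 62 nt of MICALL2.

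The median enrichment of these sites over input was high in both lists, but the value in EPI said little about the value in MES. The eCLIP values are the authors' log2 ratios of AKAP8 IP to input, 1 merged value per peak from both replicates, so they carry no error and were not tested. Taking the highest peak of each state in a site, the median log2 IP/input was 3.73 in EPI (quartiles 3.15 and 4.33) and 3.30 in MES (quartiles 2.63 and 3.86). The lowest values were 0.59 in EPI and 0.29 in MES. The difference MES minus EPI had a median of -0.49 and ran from -4.50 to 4.05. EPI was higher at 4824 sites (66.2%) and MES at 2461. The states differed by no more than 1 on the log2 scale at 4086 sites (56.1%), EPI was higher by more than 1 at 2404, and MES was higher by more than 1 at 795 (10.9%). Across the 7285 sites, the Spearman correlation between the states was 0.16 and Pearson's r 0.17. The sites share the same 8 libraries, and the values repeat between sites, with 1330 distinct EPI values and 2161 distinct MES values, so these correlations are a description only.

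**Figure D1:**
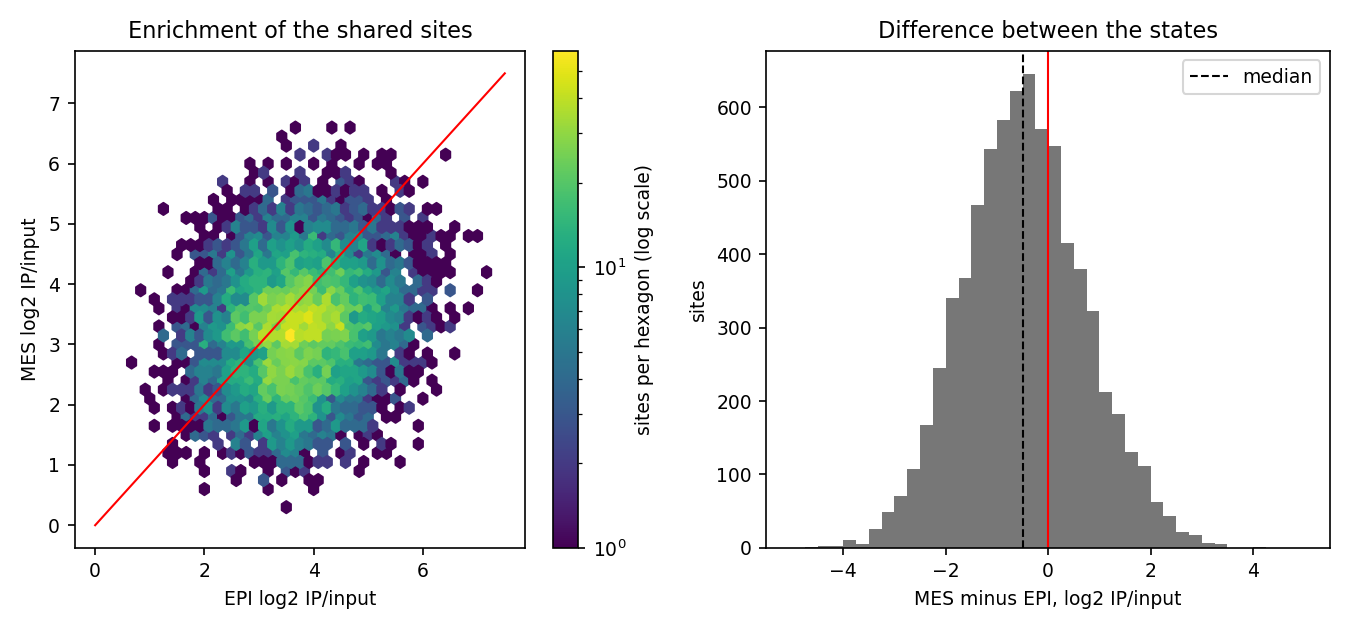
Log2 IP/input of the 7285 shared sites in EPI (horizontal) and MES (vertical), as the number of sites per hexagon on a log colour scale with the line of equality in red, and a histogram of MES minus EPI with its median of -0.49 dashed. The cloud is wide (Spearman correlation 0.16) and lies mostly below the line.

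Most shared peaks overlapped the other list by more than a small contact. The median EPI shared peak had 96.9% of its length covered by a MES peak, and the median MES shared peak had 94.6% covered. Just inside the rule were 61 EPI and 72 MES peaks with an overlap of 1 nt, and 530 and 544 overlapped by under 10 nt. Just outside it were 74 EPI and 86 MES peaks that abutted a peak of the other list with a gap of 0 nt. In all, 1711 EPI (18.1%) and 3305 MES (21.5%) of the peaks that were not shared lay under 100 nt from a peak of the other list. Shared peaks had somewhat higher deposited values than the others. The median log2 IP/input was 3.82 for shared and 3.48 for other EPI peaks, and 3.41 and 3.30 for MES peaks. The median -log10 adjusted p was 9.54 against 6.07 in EPI and 11.6 against 5.24 in MES. At 5439 sites (74.7%), both states passed a log2 IP/input of 2 and a -log10 adjusted p of 3, the cutoffs that the study set for its peaks. Most sites were built from several overlapping peaks, with 1797 sites (24.7%) holding exactly 1 peak of each list and up to 34 EPI and 21 MES peaks in a site.

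The strongest sites within genes were centred in introns. Ranked by the weaker state with 1 site a gene, the first was GPSM1, a modulator of G-protein signalling, at 6.39 in EPI and 6.22 in MES. EIF5A, a translation factor, had 5.75 and 5.72 at chr17:7211107-7211353, in its first intron and overlapping 5′ UTR exons of other transcripts. RXRA, the nuclear receptor that pairs with retinoic acid and vitamin D receptors, had 6.004 in EPI and 5.72 in MES. NOTCH1, a receptor for ligands on neighbouring cells, had 5.60 and 5.62, and COL18A1, a basement membrane collagen, had 5.68 and 5.53. Of these, RXRA differed most between the states, by -0.28. PLEC, the plectin that links intermediate filaments to junctions, had 5.51 and 5.68, and ZDHHC8, a palmitoyltransferase, had 5.49 and 5.67. The kinase AKT1 had 5.37 in EPI and 5.89 in MES, and LRRC41 6.004 and 5.29. The phospholipase PLCH2 had 5.26 and 5.39, the G-protein subunit GNA11 5.26 and 5.94, and the membrane-type metalloproteinase MMP17 5.26 and 5.24. PLCH2, GNA11 and MMP17 had the same EPI value. Among sites as strong as these, 2 lay in no annotated gene, 1 at chr1:2392651-2392711 with 5.58 and 5.30 and 1 at chr7:1470986-1471060 with 5.80 and 5.26.

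The sites with the largest difference had a log2 IP/input over 5 in 1 state and of 1.10 to 2.34 in the other. RXRA held the largest fall, at chr9:137317408-137317448 in its sixth intron, with 5.60 in EPI and 1.10 in MES. PRNP, the prion protein gene, followed with 5.85 and 1.38, and ZNF337 with 5.91 and 1.63. SDC1, the heparan sulfate proteoglycan syndecan-1, held a pair of them in its first intron, with 5.34 and 1.12 at chr2:20415293-20415379 and 5.38 and 1.34 at chr2:20416027-20416131. In the other direction, PISD, which makes phosphatidylethanolamine in mitochondria, had 1.27 in EPI and 5.32 in MES at chr22:32020594-32020644. ZFPM1, a GATA cofactor, had 1.64 and 5.07, RXRA 2.34 and 5.66 at chr9:137319506-137319590, ZC3H3 2.34 and 5.66, and UCKL1 2.18 and 5.48. Both of these RXRA sites, which differed in opposite directions, lay in the same intron. In all 10, the weaker state rested on 1 or 2 peaks, and its -log10 adjusted p was as low as 0.787 for PISD and 7.34 for ZNF337 at the most.

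Most shared sites lay deep in introns. Of the 7285 sites, 5302 (72.8%) were centred in an intron more than 500 nt from a splice site and 1397 (19.2%) in an intron within 500 nt of one. Exonic classes were small, with 173 sites in 5′ UTR exons (2.37%), 134 in 3′ UTR exons (1.84%), 32 in noncoding exons and 31 in coding exons, and 216 (2.96%) lay in no gene on their strand. In both intron classes, the shared sites stood between the regions of the single lists. Distal introns took 58.7% of the EPI-only regions and 80.3% of the MES-only regions, and proximal introns 30.8% and 13.4%. The share in 3′ UTR exons was 3.37% of EPI-only and 1.93% of MES-only regions, and that in no gene 2.33% and 1.89%. The median distance to the upstream 5′ splice site was 3348 nt for shared sites, 1676 nt for EPI-only and 5969 nt for MES-only regions. Regions are not replicates and overlap in source, so these shares are set side by side without a test.

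**Figure D2:**
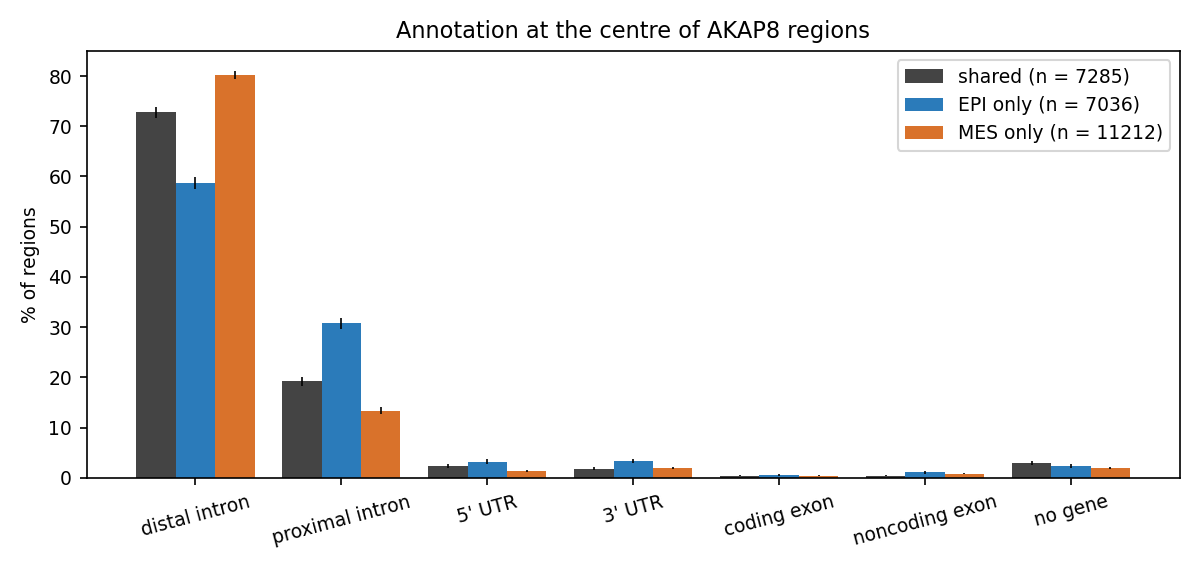
Share of shared sites (grey, n = 7285), EPI-only regions (blue, n = 7036) and MES-only regions (orange, n = 11212) by the annotation at their centre, in percent, with exact 95% binomial intervals that cover counting error only. Distal introns hold 72.8%, 58.7% and 80.3%, with the shared sites between the other sets.

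Within introns, shared sites leaned to the 5′ end. Of 6699 intronic sites, 62.4% were nearer to the 5′ than to the 3′ splice site, against 63.7% of EPI-only and 59.8% of MES-only regions. Among 6287 of them in an intron of the canonical transcript, 3202 (50.9%) were in the first intron, against 49.4% and 45.4%. Within 500 nt of a 5′ splice site were 15.9% of the shared sites and within 500 nt of a 3′ splice site 6.40%. These shares were 26.0% and 11.9% for EPI-only and 9.79% and 5.49% for MES-only regions. The classes of shared sites also differed in their balance between states, with a median MES minus EPI of -0.42 in distal introns, -0.73 in proximal introns and -0.66 in 5′ UTR exons.

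Shared sites gathered near the ends of chromosomes. Their median distance to the nearer end of the chromosome was 3.41 Mb, and 4402 (60.4%) lay within 5 Mb of it. The EPI-only regions had a median of 11.6 Mb and 34.9% within 5 Mb, and the MES-only regions 4.69 Mb and 52.0%. Chromosome 19 held 998 shared sites (13.7%), the most of any, followed by chromosome 9 with 701, chromosome 17 with 671, chromosome 1 with 600 and chromosome 16 with 584. For tandem repeats, the 300 nt around each centre were compared with themselves shifted by 10 to 75 nt. The identity was at least 70% at 95 sites (1.30%), and at 0.966% of EPI-only and 0.678% of MES-only regions. The COL18A1 site, with a fraction of 0.608, fell short of this cutoff, so repeats that fill only part of the 300 nt can be missed.

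Guanine runs were the sequence feature that the sites had in common. In windows that reached 50 nt to either side of the centre, on the transcribed strand, the median content was 43.6% G, 21.8% C, 16.8% A and 16.8% U, and the median window held 6 runs of at least 3 guanines. GGGG stood in 6741 of 7285 windows (92.5%), and its reverse complement in 34.6%. A run of exactly 3 guanines with A or U on either side, which GGGG cannot contain but can lie beside, stood in 5999 windows (82.3%), with the reverse complements in 31.3%. Of its forms, AGGGA stood in 38.8% of windows, AGGGU in 29.1%, UGGGA in 41.3% and UGGGU in 30.4%. Windows placed 1000 nt upstream and 1000 nt downstream of the same sites held GGGG in 56.0% and 52.5%, the flanked run in 54.0% and 55.1%, and a median of 3 and 2 guanine runs.

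EPI-only windows were like the shared ones in these shares and MES-only windows were lower. GGGG stood in 91.6% of EPI-only and 83.2% of MES-only windows, and the flanked run in 82.3% and 75.8%. The median G content was 43.6% in EPI-only and 38.6% in MES-only windows. A stretch of 4 guanine runs with at most 7 nt between neighbours, the pattern that can form a four-stranded fold, was present in 1960 shared windows (26.9%), in 29.7% of EPI-only and in 12.8% of MES-only windows. Within the shared sites, the number of guanine runs had a Spearman correlation of 0.17 with the EPI value and -0.01 with the MES value over the 7285 sites.

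Motifs of other EMT splicing regulators were counted too. They differ in length from the guanine runs, so their shares cannot be ranked against those above. UGGUGG, a motif bound by ESRP1 and ESRP2, stood in 14.9% of shared windows, 13.4% of EPI-only and 13.1% of MES-only windows, and its reverse complement in 1.98% of shared windows. UGUGU, a GU-rich element, stood in 11.5%, 11.6% and 12.995%, and its reverse complement in 4.68% of shared windows. UGCAUG, the RBFOX motif, stood in 2.83% of shared windows and its reverse complement in 1.26%. For UUUCUU, a PTB motif, these shares were 1.08% and 0.769%. For ACUAA, the core of the QKI motif, they were 0.590% and 1.73%, with the reverse complement higher. A match of letters is not a binding site, and its absence says only that these letters are not in the window.

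**Figure D3:**
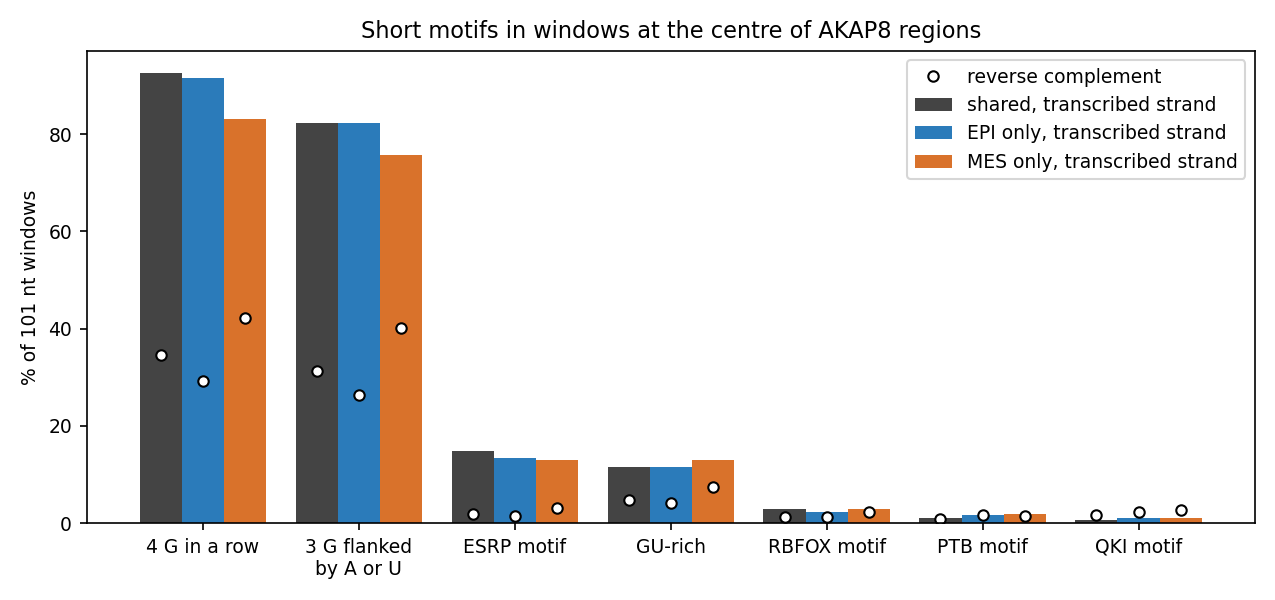
Percent of windows reaching 50 nt to either side of the centre of shared sites (grey), EPI-only (blue) and MES-only regions (orange) that hold each short motif on the transcribed strand, with the reverse complement as white circles. Runs of 4 guanines stand in 92.5% of shared windows against 34.6% for the reverse complement, and the RBFOX, PTB and QKI motifs stand in under 3% of windows of each set.

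The sites were crowded into few genes. They lay in 1327 host genes, with a median of 2 sites a gene and 551 genes (41.5%) with 1 site. The 176 genes with at least 10 sites held 4266 sites (58.6%). The median gap between neighbouring sites of a gene was 432 nt, and 34.7% of the 5742 gaps were at most 200 nt, so that sites of 1 gene are not independent. Protein-coding genes hosted 6808 sites and lncRNA genes 230.

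RXRA held 166 sites in its 123488 nt (chr9:137208944-137332431), 13.4 per 10 kb, and 131 of them lay in its first intron. SEPTIN9, a septin of the cytoskeleton, held 130, VAV2, a guanine nucleotide exchange factor, 120, and MAD1L1, a spindle checkpoint protein, 115. SKI, a repressor of TGF-β signalling, held 99 sites, 98 of them in its first intron. PLEC, a linker of the cytoskeleton, held 73, BAIAP2, which bends membranes at filopodia, 58, FBRSL1 57 and NOTCH1 54. These genes did not lean to the same state. In NOTCH1, EPI was higher at 50 of 54 sites, with medians of 4.44 in EPI and 3.23 in MES, and in PLEC at 59 of 73, with medians of 4.62 and 4.204. In MAD1L1, EPI was higher at 39 of 115 sites, with medians of 3.37 and 3.77, and in RXRA at 70 of 166, with medians of 3.83 and 4.04. The same genes also held regions of the single lists. MAD1L1 had 298 MES-only and 9 EPI-only regions, RXRA 144 and 9, and NOTCH1 14 and 18.

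**Figure D4:**
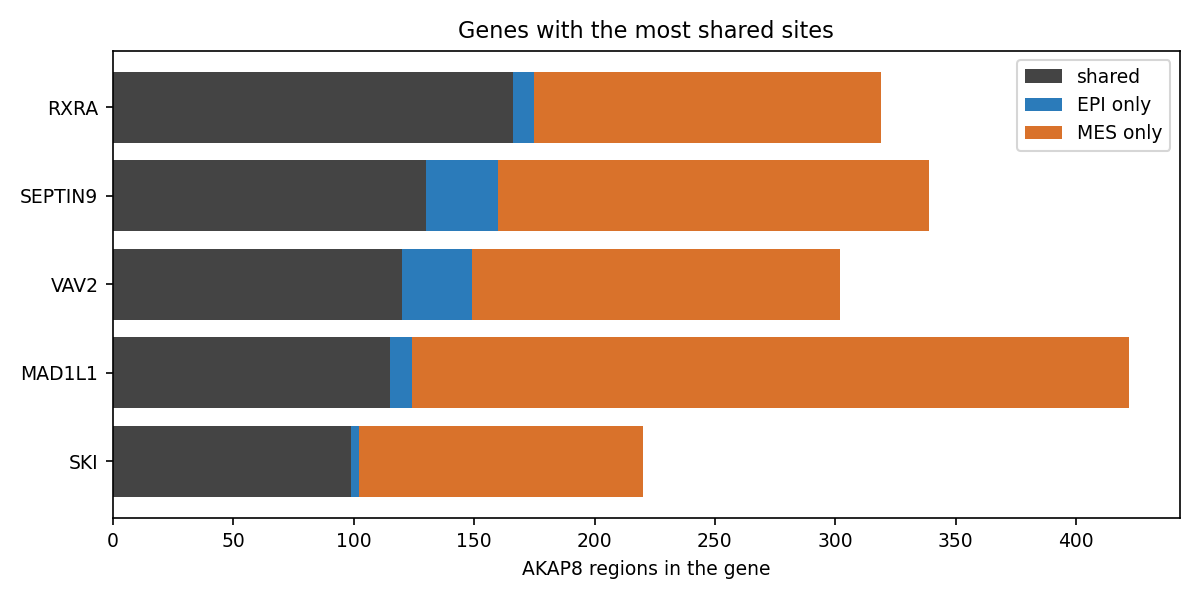
Number of AKAP8 regions in the 5 genes with the most shared sites, as stacked bars of shared sites (grey), EPI-only (blue) and MES-only regions (orange). RXRA leads with 166 shared sites, and SEPTIN9, VAV2, MAD1L1 and SKI have more MES-only regions (179, 153, 298 and 118) than shared sites (130, 120, 115 and 99).

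Short lists of genes of RNA splicing and EMT were searched for shared sites. As background, 957 of the 9016 genes with a junction-read value (10.6%) hosted one. Among members with such a value, 1 of 11 EMT splicing regulators and 0 of 8 SR and TRA2 factors did. So did 3 of 10 genes for AKAP8 and its partners, 2 of 14 junction and polarity genes and 6 of 20 cytoskeleton or EMT target genes. The lists are short and were not tested against the background. Of all 12 EMT splicing regulators, only PTBP1 hosted a site, with 12 sites at medians of 3.999 in EPI and 3.14 in MES. No site lay in ESRP1, ESRP2, RBFOX2, QKI, the MBNL or the CELF genes, and none in the 13 SR and TRA2 factors. Of 12 genes for AKAP8 and proteins it is known to bind, 4 did. AKAP8 itself held 6 sites with medians of 3.08 and 3.16, HNRNPF 6, HNRNPUL1 5 and HNRNPH1 2, the last at 5.47 and 4.96. Of 15 cell junction and polarity genes, SCRIB held 6 sites and CTNNB1 1, the latter at 4.18 in EPI and 1.70 in MES. Of 20 genes of the cytoskeleton or known as EMT splicing targets, 6 hosted a site, among them PLEC with 73, ACTN4 with 3 and MYO18A with 2. In the merged lists used here, CLSTN1 had 2 EPI peaks, no MES peak and no shared site, and CD44 had no peak in either list. The study itself reports AKAP8 binding at CLSTN1 in both states and a peak upstream of a CD44 variable exon.

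The RNA-seq asked whether exons beside these sites respond to AKAP8 knockdown or to EMT. The libraries held 31258177 to 40852217 junction reads over cassette exon events. Scaled junction reads of the targeted gene, AKAP8, averaged 266 in EPI control (SD 37.8, n = 3) against 115 in EPI shAKAP8 (SD 14.0, n = 3). In MES, control libraries averaged 275 (SD 96.2, n = 3) and knockdown libraries 115 (SD 9.62, n = 2), and control and knockdown libraries did not overlap in either state. The log2FC was -1.20 (SE 0.25) in EPI, with an adjusted p of 0.0664 by limma, and -1.20 (SE 0.28) in MES, with an adjusted p of 0.0322. Of the epithelial markers, 5 of 12 had a value and all 5 fell in EMT, with a summed level of 7353 to 8774 in EPI control and 547 to 896 in MES control. Of 11 mesenchymal markers, 10 had a value and all 10 rose. Of 7 blood and vessel markers, only CD68 had a value.

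In EPI, 2 of 679 cassette exon events within 1000 nt of a shared site changed on AKAP8 knockdown, at an adjusted p under 0.05 and a change of the percent spliced in (PSI) of at least 10 points. Over all events, 28 of 47579 (0.0588%) did. TPD52L2, a member of the tumour protein D52 family, had a 60 nt exon at chr20:62507169-62507228 with the site 433 nt downstream, at 3.16 in EPI and 3.26 in MES. Its PSI was 71.2%, 76.8% and 76.1% in EPI control and 67.2%, 58.7% and 63.3% in EPI shAKAP8. The groups did not overlap, and the mean fell from 74.7% ± 3.04 to 63.1% ± 4.26 (SD, n = 3 each), with an adjusted p of 0.0085 by the quasi-binomial test. In MES, its PSI was 78.2% and 74.1% in control and 68.9% and 62.9% in shAKAP8, a difference of -10.3 points that did not pass (adjusted p = 0.192). The MES control library at place 3, which is not in this comparison, had 71.4%. The interaction between state and knockdown had a p of 0.436 and an adjusted p of 0.805, so the effects were not shown to differ.

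MICALL2, which binds Rab proteins and is found at cell junctions, had a 938 nt exon at chr7:1473846-1474783 with the site 105 nt upstream, at 3.59 in EPI and 3.54 in MES. Its PSI was 63.0%, 88.2% and 61.2% in EPI control and 96.2% in 1 EPI shAKAP8 library, with all reads on the inclusion form in the other two. The groups did not overlap, but the event had 53.0 junction reads a library on average, and the mean went from 70.8% ± 15.1 to 98.7% ± 2.18 (SD, n = 3 each; adjusted p = 0.0416). In MES, it was 71.4% and 58.7% in control and 88.9% and 86.7% in shAKAP8, and this did not pass (adjusted p = 0.763). The MES control library at place 3, which is not in this comparison, had 84.6%, close to the shAKAP8 values. Leaving out 1 library at a time ended most of these calls. TPD52L2 was lost in 4 of 6 such fits (all but those without control or knockdown place 1) and MICALL2 in 5 (all but that without control place 2), with changes of -13.7 to -9.44 and 23.1 to 36.7 points. Neither passed with limma on the logit of PSI.

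In MES, where the tables hold 2 of the 3 control libraries and 2 knockdown libraries, 0 of 611 events beside shared sites passed the quasi-binomial test, against 21 of 43832 over all events (0.0479%). At an unadjusted p under 0.05, 15 of the 611 changed by at least 10 points, against 466 of 43832 over all events. Beside EPI-only regions 15 of 1090 did and beside MES-only regions 24 of 743. With limma on the logit of PSI, 0 events beside shared sites were called. Adding the control library at place 3 from the EMT tables also gave 0. Among exons described below for EMT, the lowest adjusted p-values were those of PLXNB2, a semaphorin receptor, at -17.8 points (adjusted p = 0.0637), and RRBP1, a ribosome-binding protein of the endoplasmic reticulum, at -16.7 points (adjusted p = 0.0851). The PISD exon differed by -20.2 points (adjusted p = 0.763). These differences leave out the MES control library at place 3. Its PSI was 77.5% for PLXNB2, between 88.3% and 63.3% in shAKAP8, and 39.99% for RRBP1, between 43.3% and 34.7%. For PISD it was below both shAKAP8 values (34.4% and 28.2%). With this control included, the difference was -12.5 points for PLXNB2 and -11.4 points for RRBP1. The difference of the knockdown effect between the states was called at 0 of 460 events beside shared sites by the quasi-binomial interaction test. Over all events, 3 of 30197 (0.00993%) were called. An unadjusted p under 0.05 with a difference of at least 10 points was found at 10 of the 460, against 444 of 30197 over all events.

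In EMT, 12 of 672 events beside shared sites changed (1.79%), 9 towards inclusion and 3 towards skipping, against 691 of 49330 (1.40%) over all events. The share beside the sites was close to this background. In all 12 events, which lay in 11 exons, the 3 EPI control and 3 MES control libraries did not overlap. With limma on the logit of PSI, only the CAPN15 call was kept (adjusted p = 0.0142), and the other 11 were lost (adjusted p = 0.0546 to 0.417).

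CAPN15, a calpain-like protease, had the largest change, at an exon that overlapped its site at chr16:586033-586082. Its PSI was 2.63%, 7.32% and 12.8% in EPI and 30.2%, 81.8% and 37.5% in MES, from 23.7 junction reads a library (42.3 points, adjusted p = 0.0014). Without MES control place 2 the difference was 26.3 points (adjusted p = 0.139), and without EPI control place 1 it was 39.8 points (adjusted p = 0.115). PLXNB2 went from 57.9% ± 12.6 to 88.2% ± 9.31, with the site 290 nt downstream of the exon. MTA1, a subunit of the NuRD chromatin complex, had PSI values of 29.3%, 35.0% and 33.3% in EPI and 69.2%, 57.8% and 61.0% in MES, with the site 166 nt upstream. RRBP1 went from 20.6% ± 7.70 to 50.5% ± 9.54, with the site 660 nt upstream. PUF60, itself a splicing factor, went from 32.3% ± 5.82 to 61.6% ± 10.1, with the site 405 nt downstream. CAMKK2, a kinase upstream of AMPK, went from 9.43% ± 2.23 to 35.7% ± 13.3, with the site 182 nt downstream, and lost its call without MES control place 1 (19.4 points, adjusted p = 0.186). TSPAN4, a tetraspanin, rose by 11.7 points, and this call was lost in each of the 6 fits without a library (adjusted p = 0.0721 to 0.154). All ± values are SD with n = 3.

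PISD held the site with the largest difference of enrichment towards MES, near a changed exon. The EPI peak had a -log10 adjusted p of only 0.787, and a link between site and exon was not tested. The site, at 1.27 in EPI and 5.32 in MES, lay 759 nt upstream of the exon chr22:32019670-32019835. The PSI of this exon averaged 14.6% ± 5.32 in EPI control and 42.7% ± 15.3 in MES control (SD, n = 3), a rise of 28.1 points. BAIAP2 had 2 changed exons in opposite directions. Near its 5′ end, chr17:79010663-79010761 rose from 5.05% ± 1.39 to 16.6% ± 1.19 (SD, n = 3), with a site 406 nt downstream at 3.65 in EPI and 4.61 in MES. Near its 3′ end, the exon at chr17:79084714-79084759 fell from 47.3%, 45.6% and 52.9% to 21.9%, 23.8% and 24.9%, and a form of it that ends 4 nt earlier fell by 17.3 points, a call lost in 5 of 6 fits without a library (kept without MES control place 3). The longer form was lost without MES control place 1 (adjusted p = 0.0766). Their common site was 423 nt downstream of the longer form, at 2.44 and 2.68. STK25, a kinase, fell by 11.2 points, with the site 63 nt downstream, from libraries that came as close as 90.24% and 90.18%. Its call was lost without EPI control place 2 (adjusted p = 0.318) or MES control place 2 (adjusted p = 0.172).

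In 9 of the 12 events, the MES control library at place 3 of its field, which is in the EMT tables only, was the one nearest to the EPI mean. Its summed epithelial marker level was 890, between 547 and 896 in the other MES controls, and without it 11 events were called. EMT events and both knockdown comparisons share control libraries, so their changes are given side by side and were not compared.

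**Figure D5:**
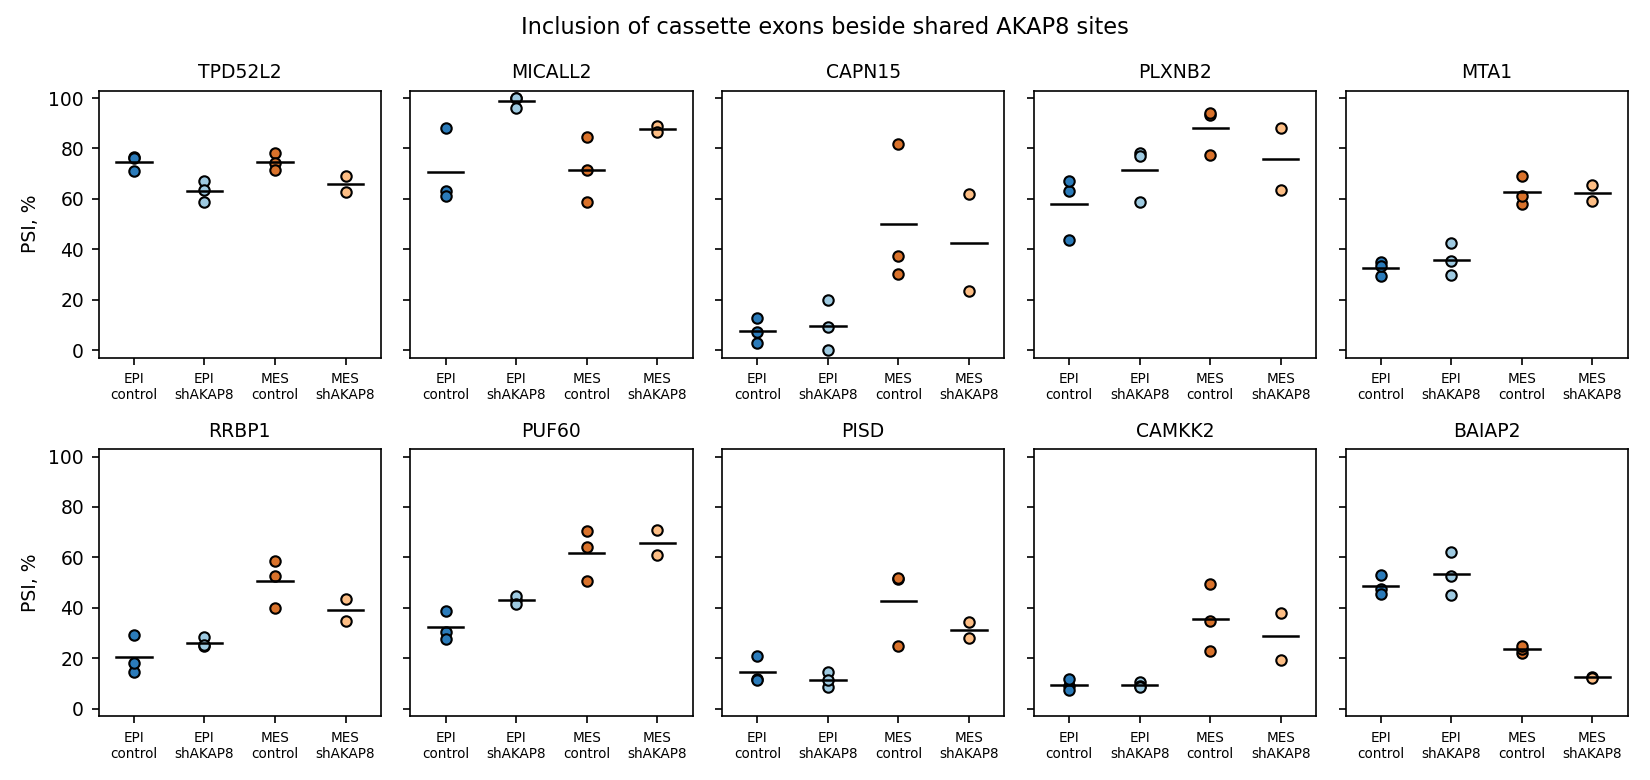
Percent spliced in (PSI) of 10 cassette exons beside shared sites in each library (points) with the group mean (line), for EPI control, EPI shAKAP8, MES control and MES shAKAP8. TPD52L2 and MICALL2 separate control from knockdown in EPI, and the other 8 separate EPI control from MES control.

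Among the other types of event beside shared sites, mutually exclusive exons (MXE) changed most often in EMT. Of 215 MXE events within 1000 nt of a shared site, 15 changed (6.98%), against 2.24% over all events. The other settings and the fits without a library were run for cassette exons only, so calls of the types given here were not checked in this way. Beside MES-only regions 15 of 252 changed (5.95%) and beside EPI-only regions 12 of 448 (2.68%), and 7 events were among the 15 of both the shared and the MES-only set. The 15 events beside shared sites lay in 13 genes, with 2 overlapping events each in PUF60 and PDCD6. In rMATS, PSI of such a pair is the share of the first exon on the plus strand and of the second on the minus strand. GSN, the actin-severing gelsolin, went from 50.9%, 33.9% and 18.9% in EPI to 8.54%, 11.8% and 8.77% in MES. ARRDC1 went from 48.8% ± 9.44 to 29.1% ± 2.01, FAAP20 from 97.0% ± 5.25 to 77.6% ± 9.14 and TSPAN4 from 36.5% ± 1.91 to 18.1% ± 6.74 (SD, n = 3). An alternative 3′ splice site of PILRB, 1 of 51 such events beside shared sites (1.27% over all events), went from 34.6% ± 3.12 to 17.7% ± 2.13. No alternative 5′ splice site beside a shared site passed the quasi-binomial test, out of 23 in the EPI knockdown (0.0620% over all events), 23 in the MES knockdown (0.0644%) and 26 in EMT (4.29%). No retained intron passed, out of 11 in the EPI knockdown (0 over all events), 12 in the MES knockdown (0.305%) and 11 in EMT (0.343%). Of these types, 0 events beside shared sites had an unadjusted p under 0.05 with 10 points. Over all events, 30, 37 and 137 alternative 5′ splice sites did in the EPI knockdown, MES knockdown and EMT. For retained introns, these counts were 25, 62 and 105. In the MES knockdown, 0 of 185 MXE events (0.0304% over all events) and 0 of 47 alternative 3′ splice sites (0.0839%) passed. Before adjustment, 4 of the former and 1 of the latter had a p under 0.05 and 10 points. Over all events, 141 of 9877 MXE events and 52 of 2385 alternative 3′ splice sites did. In the EPI knockdown, 0 of 53 alternative 3′ splice sites passed, with 3 at that level. Over all events, 0 of 2568 passed, with 42 at that level. In the EPI knockdown, 1 of 203 MXE events passed (0.0261% over all events), in TPD52L2, which was named after its value was seen. Its first exon, chr20:62514072-62514173, with a site 228 nt downstream, went from 45.9%, 42.5% and 45.1% to 59.3%, 58.9% and 55.0% (adjusted p = 0.0274). In MES the values were 44.9% and 47.3% in control and 53.7% and 57.1% in shAKAP8 (adjusted p = 0.999). The MES control library at place 3, which is not in this comparison, had 49.0%. The junction from the upstream exon to this first exon is also the skipping junction of the TPD52L2 cassette exon described above. The 2 TPD52L2 calls therefore share reads and are not independent.

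Host genes changed about as often as genes in general. Levels were taken from junction reads and cover 957 of the 1327 hosts, and in these bulk libraries fewer cells with a transcript and less RNA per cell cannot be told apart. In the EPI knockdown, 1 host changed (0.104%), against 0.189% of all 9016 genes (0.0776% higher and 0.111% lower). This was ANKRD52, with 1 site, which rose from 381, 489 and 505 scaled reads to a mean of 1018 ± 97.7 (SD, n = 3; log2FC 1.16, SE 0.17, adjusted p = 0.0115 by limma). Its call was lost without EPI control place 1 (adjusted p = 0.104) or EPI shAKAP8 place 1 (adjusted p = 0.0523), and 4 hosts were called without EPI shAKAP8 place 2. It rose again in MES, from 567, 706 and 667 to 1985 and 1690 (log2FC 1.51, SE 0.19).

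In the MES knockdown, 28 hosts changed (2.93%, against 2.27% of all genes), 19 higher (1.99%, against 1.10%) and 9 lower (0.94%, against 1.18%). The count fell to 7 without MES shAKAP8 place 2, 16 without MES shAKAP8 place 1, 15 and 13 without MES control place 1 and 2, and 18 without EPI control place 1. The split depended on the scaling. With total junction reads as the size factor, the median of all genes shifted by -0.12 on the log2 scale and 9 hosts were higher and 12 lower. SLC6A9, a glycine transporter, rose from 39.2, 73.4 and 51.6 to 215 and 296 (log2FC 2.23, SE 0.31). GLIS2, a zinc finger factor with 15 sites, rose by 1.84 and SLC7A5, a transporter of large neutral amino acids with 16 sites, by 1.63. Without MES shAKAP8 place 2 both were lost (adjusted p = 0.0986 and 0.0857), and GLIS2 also without MES shAKAP8 place 1 (adjusted p = 0.0658). ULK1, a kinase that starts autophagy, with 14 sites, rose by 1.64 and the kinase PAK4 by 1.52, and both were lost in 6 of 11 fits without a library, with 1.08 and 0.99 without MES shAKAP8 place 2. PPL, the periplakin of desmosomes, fell by 2.06 and ACSF2 by 1.69. Both were lost without MES shAKAP8 place 2 (adjusted p = 0.160 and 0.0883), and PPL also without MES control place 1 (adjusted p = 0.0628). No host differed in its knockdown effect between states by limma's interaction contrast (0 of 957, and 1 of 9016 genes, 0.0111%).

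In EMT, 125 hosts changed (13.1%, against 12.5% of all genes), 47 higher (4.91%, against 5.39%) and 78 lower (8.15%, against 7.15%). FBLN1, a fibulin of the extracellular matrix, rose from 4848, 6421 and 4596 to 56306, 53670 and 25715 (log2FC 3.03, SE 0.31). BIN1 rose by 3.02 and RPS6KA2, a ribosomal S6 kinase, by 2.72. ITGB4, the integrin subunit of hemidesmosomes, fell from 12069, 16167 and 14640 to 1551, 2446 and 3357 (log2FC -2.603, SE 0.30), and PKP3, a desmosomal plakophilin, had a log2FC of -2.5995. SLCO4A1 fell by 3.19, FAM110A by 3.29 and PTP4A3 by 2.80, the last pair from 17.3 ± 5.16 and 27.8 ± 6.53 reads in EPI control (SD, n = 3). FAM110A was lost in each of the 6 fits without a control library. Genes that hosted regions of only 1 list were less even. Of 816 tested genes with EPI-only regions and no other, 15 were higher and 141 lower in MES (17.3%), and of 227 with MES-only regions and no other, 47 were higher (20.7%) and 6 lower. The part of transcript level in the peak calls was not tested.

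Across 5300 shared sites in 957 hosts with a value, the difference of enrichment moved little with the EMT change of the host. The Spearman correlation was 0.10 and Pearson's r 0.10, as a description, since sites of a gene share its value. At the 586 sites whose host fell by more than 1 on the log2 scale, the median MES minus EPI was -0.66 and MES was higher at 26.8%. At the 187 sites whose host rose by more than 1, these values were -0.24 and 42.2%, and at the 2138 sites whose host moved by less than 0.3, -0.45 and 34.8%.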

How the data were processed

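Poly(A) RNA-seq (11 libraries) and AKAP8 eCLIP were made in HMLE/Twist-ER cells. For eCLIP, the authors called peaks with the eCLIP pipeline, merged the 2 replicates of each state with merge-peaks, and deposited per peak the -log10 adjusted p (up to 400) and the log2 ratio of IP to input on GRCh37. No value per replicate is used here. For RNA-seq, the authors aligned reads with STAR 2.6.1a, per the labels, and deposited rMATS tables with junction read counts of each library, the libraries of a group joined in 1 field without replicate numbers. The 30 columns of per-sample PSI, the authors' p-values and differences, and their DESeq2 gene table, which holds only the authors' own comparisons, were not used.

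Members and gene lists were chosen with earlier results of these data known. Sites were annotated with Gencode v44 lifted to GRCh37, newer than the authors' version, and a protein-coding host on the same strand came first. The builds were checked: 99.8% of skipping junctions had GT and AG ends in the reference. Inclusion and skipping reads were tested with a quasi-binomial likelihood-ratio F test, with the dispersion moderated by limma 3.58.1 (robust trend on reads of the rarer form, never under 1) and Benjamini-Hochberg adjustment within type and comparison. Events needed 20 junction reads a library on average. PSI was corrected for the effective lengths in the tables. Gene levels were junction reads summed over the cassette exon events found in all 3 comparisons, divided by median-of-ratios size factors, kept where 2 libraries or more reached 10, and fitted on log2(value + 1) by limma with a trend. A changed gene had an absolute log2FC over 1 and an adjusted p under 0.05. A read that supports several events counts more than once. The study's methods call the libraries biological replicates without naming separate cultures, so p-values measure the spread between these libraries, which may be technical. The binomial intervals of shares cover counting error only. The named sites were the 12 highest by the weaker state within genes, 1 a gene, the 5 largest differences each way, and the genes with most sites. The named exons and genes were the called ones with the largest changes, up to 15 cassette exons, 5 other events and 8 genes a comparison. Some genes that these rules name are not reported here. The quasi-binomial test was run on simulated data for cassette exons in both knockdowns, and the gene test for the EPI knockdown only. The interaction was simulated with binomial counts and scored without the moderated dispersion, so that simulation does not cover the interaction test used here. The outcomes are not reported here. Python 3.11.15, pysam 0.24.0 and R 4.3.3 were used.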

Additional observations from a re-analysis of the deposited data

How the results depend on the processing

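The number of shared sites was 7068 with an overlap of at least 50% of each peak. Shared peaks then fell to 12880 in EPI (52.3% of the list) and 12765 in MES (42.0%). When strand was ignored there were 7285 sites. The number of sites fell to 3630 (8758 EPI and 9114 MES peaks) with a log2 and a -log10 p of at least 3 in both lists. The median difference MES minus EPI was -0.55 at the 1599 sites with a single peak of each state overlapping by at least 50%. With classes taken from any overlap of a site, distal introns held 71.2% and 5′ UTR exons 3.36%. With proximal introns ending at 200 nt, distal introns held 84.0% and proximal introns 7.92%. GGGG stood in 91.2% of whole sites, 80.4% of 51 nt windows and 34.6% as reverse complement, and the flanked run in 79.8%, 65.1% and 31.3%.

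Cassette exons called beside shared sites fell from 2 to 1 within 200 nt and to 0 with limma on the logit of PSI in the EPI knockdown, and rose from 0 to 2 in the MES knockdown at an adjusted p under 0.1 and 5 points. In EMT, 5 were called within 200 nt, 3 with limma on the logit (1 of the 12 of the quasi-binomial test) and 24 with no size cutoff. Leaving out a library gave 0 to 2 in the EPI knockdown, 0 to 2 in the MES knockdown, 8 to 11 in EMT and 0 to 1 for the difference between states. In the EPI knockdown it gave 1 without the control library in place 1 or 2, and 0 without control place 3 or knockdown place 2 or 3. In the MES knockdown the 2 calls came without knockdown place 1, where the lone library left is assumed to vary like the others. Changed host genes numbered 49 in the MES knockdown and 239 in EMT with no fold cutoff. The counts over all genes at this setting are not given here, so these have no background beside them. Leaving out a library gave 0 to 4 in the EPI knockdown, 7 to 39 in the MES knockdown (7 without MES shAKAP8 place 2, 13 without MES control place 2) and 96 to 140 in EMT. No value changed sign in the alternatives run. No paired analysis was possible because the libraries in the tables carry no replicate number, and the peak lists hold no replicates.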
